A study of Homo sapiens with 24 samples.

Results

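The knockdown of IGF2BP1 was compared directly with the knockdown of IGF2BP3. The cells were HepG2, a line derived from a human liver tumour and in wide use. The comparison was made of the 6 libraries labelled siIGF2BP1 and the 6 labelled siIGF2BP3, which are 12 of the 24 libraries examined, and the control siRNA does not enter it. All cells were transfected with predesigned siRNA using Lipofectamine RNAiMAX, and plates were reseeded after 6 h. After 48 h, actinomycin D, which blocks transcription, was added at 5 µg/ml, and cells were collected after 0, 3 or 6 h of the drug, with 2 replicates of each knockdown at each time point. Polyadenylated RNA was sequenced as single-end reads of 100 bases, and ERCC synthetic RNA had been added in proportion to total RNA (0.02 µl per µg). Each gene was lowered by siRNA and not removed, in a single line, so effects of an siRNA on transcripts other than its target cannot be told apart from effects of losing the target.

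IGF2BP1, IGF2BP2 and IGF2BP3 are related RNA-binding proteins that hold RNA recognition motifs followed by KH domains. They bind mostly in the 3′ UTRs of mRNAs and are known to change the stability, localization and translation of their clients, which include transcripts carrying N6-methyladenosine (m6A) and internal N7-methylguanosine (m7G). IGF2BP1 and IGF2BP3 are oncofetal proteins, active in the embryo, mostly silent in adult liver and expressed again in liver cancer.

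The 12 libraries held 31843504 to 73963827 reads on genes and 50889 to 104051 reads on ERCC RNA. Replicates had a Pearson r of 0.9933 to 0.9965 across genes on log2 CPM (reads scaled to library size). Chi-square tests put the spread of every pair above that of counting alone (statistic of 3.25 to 6.86 per degree of freedom). Reads per ERCC read, averaged over the replicates, were 707.1, 612.5 and 546.5 at 0, 3 and 6 h in siIGF2BP1 cells and 757.5, 648.7 and 593.3 in siIGF2BP3 cells, a log2 difference of -0.10 (two-sided exact permutation test within time points, p = 0.0185, smallest possible 0.00926). Unless stated otherwise, log2 differences are siIGF2BP1 minus siIGF2BP3 on the TMM scale, which sets the bulk of genes equal between libraries, and levels are TMM-scaled CPM. On the ERCC scale the median gene lay at -0.12 in place of 0.00, so small differences in favour of siIGF2BP1 are relative to the other genes of the library. The study's figure legends call the replicates independent. Its methods split each transfected plate into 3 after transfection, so libraries of different time points may share a transfection. The tests treat all libraries as independent, and p-values then measure the spread between these libraries.

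The hepatocyte markers matched the label of the line. ALB, APOB and AFP had mean levels of 14900, 36700 and 15100 CPM, HNF4A was at 320 CPM and TTR at 55.5 CPM. Of 8 markers of blood and immune cells, HBB was at 0 and PTPRC, CD3E and CSF1R reached at most 0.0269 CPM. CD14 was at 0.941 to 1.64 CPM, and LYZ, the gene of lysozyme, was at 898 to 1620 CPM. LYZ was lower in siIGF2BP1 by a log2 difference of -0.19 (SE 0.018, edgeR adjusted p = 1.74e-09). Of 10 markers of endothelial cells and fibroblasts, KDR, DCN and LUM were at 0 and PDGFRB alone passed the filter on low counts, with a log2 difference of -0.43 (SE 0.093, edgeR adjusted p = 0.000572). Summed over these 10 markers, the level was 5.94 to 9.16 CPM in siIGF2BP1 and 8.57 to 11.9 CPM in siIGF2BP3 libraries. The cells were a purchased line and not a tissue. Which cells the reads of LYZ and PDGFRB came from was not tested, and bulk RNA does not show it.

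Both siRNAs lowered their own target at every time point. IGF2BP1 (chromosome 17, 48997385 to 49056145, hg38, + strand) had a lowest, median and highest level of 113, 120 and 135 CPM in the 6 siIGF2BP1 libraries, and of 691, 773 and 802 CPM in the 6 siIGF2BP3 libraries. The groups were far apart, with a log2 difference of -2.62 (SE 0.041, edgeR adjusted p = 4.92e-27), which is a ratio of 0.16. IGF2BP3 (chromosome 7, 23310209 to 23470491) showed the opposite pattern, with 114, 143 and 167 CPM after siIGF2BP1 and 33, 34.1 and 36.6 CPM after siIGF2BP3. Its log2 difference was 2.02 (SE 0.055, edgeR adjusted p = 3.42e-21), a ratio of 4.06. In siControl (control siRNA) and siIGF2BP2 libraries the medians were 715 and 739 CPM for IGF2BP1, and 120 and 117 CPM for IGF2BP3. The medians of 773 CPM of IGF2BP1 after siIGF2BP3 and 143 CPM of IGF2BP3 after siIGF2BP1 lay above these. Part of each difference thus lay on the side of the other knockdown. For both targets the two-sided exact permutation test within time points gave p = 0.00926, the smallest that 216 relabelings allow. IGF2BP3 overlaps MALSU1 on the opposite strand, and the strand setting of the counting is not given in the sources used here.

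IGF2BP2 (chromosome 3, 185643130 to 185825042) is the family member that neither siRNA targeted. It had levels of 185, 222 and 240 CPM after siIGF2BP1 and of 181, 221 and 228 CPM after siIGF2BP3, and these ranges overlapped. The log2 difference was 0.03 (SE 0.022, edgeR adjusted p = 0.296; exact permutation p = 0.102), and it turned to -0.09 on the ERCC scale. Per kilobase of exon, which allows levels of different genes to be compared, siIGF2BP1 cells held 12.7 CPM of IGF2BP1, 40.4 of IGF2BP2 and 16.7 of IGF2BP3. The siIGF2BP3 cells held 78.4, 39.5 and 4.04 CPM per kilobase, respectively, so IGF2BP1 remained their most abundant family transcript. The contrast therefore sets cells with much IGF2BP1 and little IGF2BP3 transcript against cells in which the amounts of both were closer together.

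**Figure D1:**
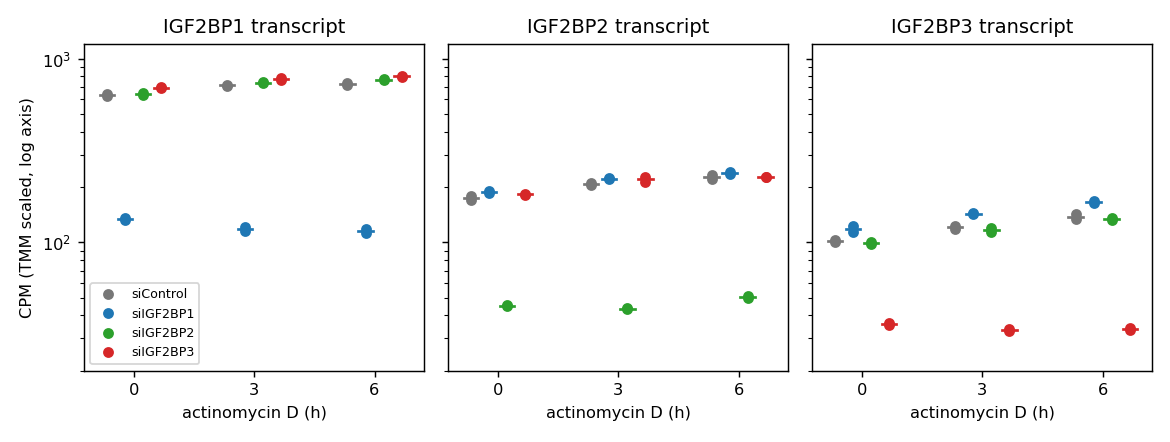
Levels of the IGF2BP1, IGF2BP2 and IGF2BP3 transcripts in each library (TMM-scaled CPM, log axis) by hours of actinomycin D. Points are libraries, short lines the mean of 2 replicates, and colours the 4 siRNAs. IGF2BP1 was at 113 to 135 CPM only in siIGF2BP1 libraries and IGF2BP3 at 33 to 36.6 CPM only in siIGF2BP3 libraries.

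The contrast asks which transcripts differed in level between cells given one siRNA and cells given the other. Averaged over the time points, 4514 of 12860 genes tested (35.1%) differed at an edgeR adjusted p under 0.05. Of these, 2432 (18.9% of genes tested) were higher after siIGF2BP1 and 2082 (16.2%) higher after siIGF2BP3. Most differences were small. The median absolute log2 difference of the called genes was 0.188, and 67.6% of them differed by less than 0.25. A called difference of at least 0.5 was found for 361 genes (2.81%), with 145 higher after siIGF2BP1 (1.13%) and 216 higher after siIGF2BP3 (1.68%), and one of at least 1 was found for 26 genes (0.202%), with 9 (0.07%) and 17 (0.132%). The split of the small differences depended on the scale. With ERCC scaling 5592 genes were called, with 640 higher after siIGF2BP1 and 4952 higher after siIGF2BP3 (11.4% higher after siIGF2BP1, against 53.9% on the TMM scale).

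**Figure D2:**
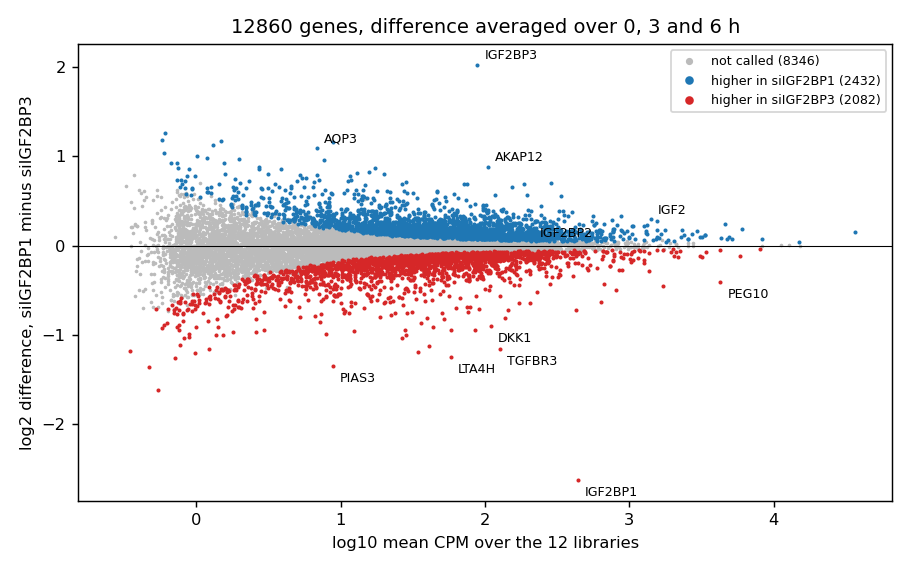
Log2 difference (siIGF2BP1 minus siIGF2BP3, averaged over 0, 3 and 6 h, TMM scale) against the log10 mean CPM of 12860 genes. Coloured points are genes called at an edgeR adjusted p under 0.05, with 2432 above 0 and 2082 below 0. The 2 siRNA targets lie far outside the rest, at -2.62 and 2.02.

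Of genes called higher after siIGF2BP1, 98.3% had the same sign at all 3 time points, and of those called higher after siIGF2BP3, 97.3%. These genes were called on the average of the same time points, so the shares follow in part from that choice. Tested singly, 1533 genes (11.9%) were called at 0 h, with 828 higher after siIGF2BP1 (6.44%) and 705 higher after siIGF2BP3 (5.48%). At 3 h 2327 genes were called (18.1%), with 1224 (9.52%) and 1103 (8.58%), and at 6 h 2493 (19.4%), with 1507 (11.7%) and 986 (7.67%). Of these, 561 and 424 genes were called in 1 direction at all of them, higher after siIGF2BP1 and siIGF2BP3, respectively. The count at 0 h fell to 823 and 788 without replicate 1 or 2 of siIGF2BP1 at 0 h, and to 820 and 787 without replicate 1 or 2 of siIGF2BP3 at 0 h. The count at 3 h fell to 1315 and 1323 without replicate 1 or 2 of siIGF2BP1 at 3 h. Libraries of the groups did not overlap at any time point, in 1 direction, for 3157 genes (24.5% of genes tested), 1801 of them higher after siIGF2BP1 (14.0%) and 1356 higher after siIGF2BP3 (10.5%).

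Transcripts lower after siIGF2BP1 than after siIGF2BP3 made up most of the largest differences. Among called genes with a mean of 5 CPM or more and 1 sign at all time points, the first 4 by size after IGF2BP1 itself were PIAS3, LTA4H, HAGLR and TGFBR3. PIAS3, a SUMO ligase that inhibits STAT3 (chromosome 1, 145848522 to 145859836), had 3.71, 4.89 and 6.42 CPM (lowest, median, highest) after siIGF2BP1 and 11.7, 12.4 and 14.3 CPM after siIGF2BP3. The groups did not overlap, and the log2 difference was -1.35 (SE 0.087, edgeR adjusted p = 9.85e-13). LTA4H, the hydrolase that makes leukotriene B4 (chromosome 12, 96000753 to 96043520), had 31, 34.2 and 38.1 CPM against 62, 81 and 103 CPM. Its groups were likewise apart, with a log2 difference of -1.24 (SE 0.049, edgeR adjusted p = 1.41e-17).

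HAGLR is a long noncoding RNA of the HOXD locus and HOXD1 a homeobox gene transcribed away from it (chromosome 2, 176164051 to 176188958 and 176188668 to 176190907). HAGLR had 20.1, 20.5 and 23 CPM after siIGF2BP1 and 40.6, 49.9 and 53.2 CPM after siIGF2BP3, a log2 difference of -1.19 (SE 0.044, edgeR adjusted p = 3.44e-18). HOXD1 had 5.49, 14.1 and 41.2 CPM against 15.9, 31.9 and 66.3 CPM, ranges that overlapped over the time course but not within a time point, and a difference of -1 (SE 0.072, edgeR adjusted p = 7.39e-12). These genes overlap on opposite strands, so reads of the shared stretch cannot be assigned without the strand setting. The same limit holds for PIAS3 with NUDT17, COG5 with HBP1 and DUS4L, SLC16A6 with ARSG, PEG10 with SGCE, CP with HPS3 and CCND1 with LTO1, each overlapping on the opposite strand.

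TGFBR3, the co-receptor betaglycan for TGF-beta ligands (chromosome 1, 91680343 to 91906335), had the most reads of the 4, with 67.4, 76.1 and 93 CPM after siIGF2BP1 and 148, 173 and 203 CPM after siIGF2BP3. The log2 difference was -1.15 (SE 0.030, edgeR adjusted p = 1.69e-21) and nearly the same at each time point, at -1.09, -1.18 and -1.18. CELSR2, a seven-pass cadherin, had 15.3, 16.9 and 20.1 CPM against 29, 36.4 and 43.6 CPM. The difference of -1.03 (SE 0.057, edgeR adjusted p = 3.12e-14) was larger than the spread of either group. CENPB, which binds the CENP-B box of centromeric DNA, is described with the time course. The other members of the 12 lowest genes were CREBL2, CHSY1 (chondroitin synthase), PRR11 and COG5 (a subunit of the Golgi COG tethering complex), with differences of -0.99, -0.95, -0.95 and -0.95. PRR11 was at 37.7 to 40.8 CPM after siIGF2BP1 and 68.5 to 84.7 CPM after siIGF2BP3.

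Transcripts higher after siIGF2BP1 than after siIGF2BP3 were led, after IGF2BP3 itself, by AQP3 and F3 among the genes reported. AQP3, a channel for water and glycerol, had 7.2, 9.82 and 11.2 CPM against 3.26, 4.1 and 6.76 CPM. Its groups were apart, with a difference of 1.09 (SE 0.097, edgeR adjusted p = 5.87e-10). F3, the tissue factor that starts coagulation, had 8.05, 9.9 and 12.3 CPM against 4.04, 4.74 and 7.35 CPM, a difference of 0.96 (SE 0.082, edgeR adjusted p = 2.65e-10).

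AKAP12, a scaffold protein that anchors protein kinase A (chromosome 6, 151239967 to 151358559), had the most reads of the 12 highest genes. Its levels were 123, 137 and 145 CPM after siIGF2BP1 and 72.5, 73.5 and 75.3 CPM after siIGF2BP3. The groups lay far apart, with a difference of 0.88 (SE 0.029, edgeR adjusted p = 2.93e-19) that was 0.91, 0.94 and 0.78 at 0, 3 and 6 h. Smaller differences were found for NR1H2, the liver X receptor beta, at 0.82, GPAT3, which acylates glycerol 3-phosphate, at 0.81, and CPT1A, which carries fatty acids into mitochondria, at 0.78. Their edgeR adjusted p values were 1.15e-11, 7.26e-11 and 6e-11, and the groups of each did not overlap. CDC37L1, SEMA7A, SLC16A6 and NKIRAS1 completed the list, with differences of 0.86, 0.81, 0.79 and 0.79 and groups that overlapped over the time course but not within a time point. NKIRAS1 overlaps UBE2E1 and RPL15 on the opposite strand.

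The contrast alone does not show which knockdown moved a transcript, so the libraries it did not use were set beside it. For this, the mean level in siControl and siIGF2BP2 cells was placed on the line from the siIGF2BP3 level to the siIGF2BP1 level of each called gene with a difference of at least 0.5, the targets left out. Among 215 genes higher after siIGF2BP3, siControl lay in the 25% of this line nearest to siIGF2BP3, or beyond it, for 141 genes, in the middle for 60 and near siIGF2BP1 for 14. For siIGF2BP2 the counts were 152, 50 and 13, and for 111 genes both siControl and siIGF2BP2 lay near siIGF2BP3. The median log2 difference of these 215 genes was -0.56 for siIGF2BP1 minus siControl and 0.09 for siIGF2BP3 minus siControl. Among 144 genes higher after siIGF2BP1 the picture was mixed, with siControl near siIGF2BP3 for 34 genes, in the middle for 63 and near siIGF2BP1 for 47, and medians of 0.28 and -0.35. Many of these genes had few reads, with median levels of 5.12 CPM for the 144 and 4.14 CPM for the 215, against 19.9 CPM over all genes. Thus genes lower after siIGF2BP1 had, for the greater part, other conditions at the siIGF2BP3 level, while genes higher after siIGF2BP1 had no such common side.

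The largest genes showed the same division. PIAS3 had medians of 13 CPM in siControl and 12.1 CPM in siIGF2BP2, beside 12.4 CPM after siIGF2BP3 and 4.89 CPM after siIGF2BP1. LTA4H had 84.1 and 76.3 CPM in siControl and siIGF2BP2, beside 81 and 34.2 CPM. CELSR2 had 37.3 and 35.4 CPM, beside 36.4 and 16.9 CPM. The transcripts of these genes were thus low in siIGF2BP1 cells alone of the 4 conditions. TGFBR3 was lower than in siControl (211 CPM) in all 3 knockdowns, at 151 CPM in siIGF2BP2. HOXD1 was at 19 CPM in siControl and 19.1 CPM in siIGF2BP2, between 14.1 CPM after siIGF2BP1 and 31.9 CPM after siIGF2BP3. In the other direction, AKAP12 was at 137 CPM in siControl and 134 CPM in siIGF2BP2, the level of siIGF2BP1 cells, and was low only in siIGF2BP3 cells. CPT1A was at 10.4 CPM in siControl, between 15 CPM after siIGF2BP1 and 8.23 CPM after siIGF2BP3.

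**Figure D3:**
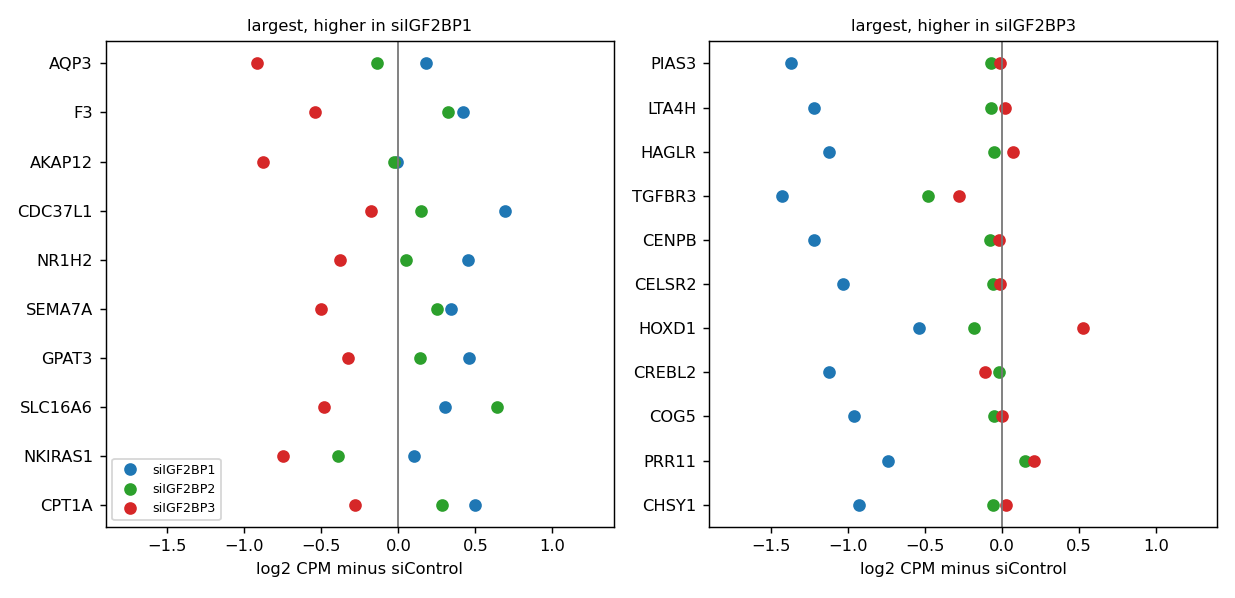
Mean log2 CPM of each knockdown minus siControl (vertical line at 0) for the largest genes reported, the targets left out, with 10 higher after siIGF2BP1 and 11 higher after siIGF2BP3. Each point is the mean over the 3 time points and 2 replicates of 1 knockdown. PIAS3, LTA4H and CELSR2 were low only after siIGF2BP1, and AKAP12 was low only after siIGF2BP3.

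The interaction of knockdown and time asks whether the difference changed once transcription was blocked. It was called for 19 genes (0.148% of genes tested), while 880 genes had an unadjusted p under 0.05 and DESeq2 called 53. For 16 of the 19, siIGF2BP1 cells held relatively less of the transcript at 6 h than at 0 h. The count was 11 and 10 without replicate 1 or 2 of siIGF2BP1 at 0 h, the same without replicate 1 or 2 of siIGF2BP3 at 0 h, 39 and 35 without replicate 1 or 2 of siIGF2BP3 at 3 h, and 31 and 41 without replicate 1 or 2 of siIGF2BP3 at 6 h. Of the 8 genes with the smallest p, 7 are described, and these were called in each of the 12 fits that left out 1 library. MPHOSPH10, TGFBR2, COPB1 and ANO6 among them were chosen after their values were seen.

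CENPB (chromosome 20, 3783851 to 3786740) changed most over time. Its level was 50.9 ± 1.1 CPM at 0 h (SD, n = 2), 20.8 ± 1.4 at 3 h and 9.81 ± 0.92 at 6 h after siIGF2BP1, and 79.4 ± 3.0, 55 ± 0.36 and 29 ± 0.27 CPM after siIGF2BP3. The log2 difference went from -0.64 at 0 h to -1.40 at 3 h and -1.57 at 6 h (edgeR interaction adjusted p = 4.98e-06). Relative to ERCC RNA, 12.3% ± 1.29 (SD, n = 2) of the 0 h level was left at 6 h after siIGF2BP1, and 24.1% ± 1.44 after siIGF2BP3. The siControl and siIGF2BP2 medians of CENPB over the time course were 55 and 53.3 CPM, beside 20.8 CPM after siIGF2BP1 and 55 CPM after siIGF2BP3.

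The difference in the targets themselves also widened. IGF2BP1 went from -2.38 to -2.79 and IGF2BP3 from 1.70 to 2.29 between 0 and 6 h (edgeR interaction adjusted p = 9.83e-05 for both). In cells treated with its own siRNA, 55.0% ± 1.26 (SD, n = 2) of the IGF2BP1 transcript was left at 6 h relative to ERCC RNA, against 75.7% ± 3.44 in siIGF2BP3 cells. For IGF2BP3 the values were 61.5% ± 1.74 with its own siRNA and 89.2% ± 0.134 in siIGF2BP1 cells. Each target was thus lost faster where its own siRNA was present.

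MPHOSPH10, a protein of the small ribosomal subunit processome, had a difference that also widened, but with siControl on the other side. Its level fell from 245 ± 1.6 CPM (SD, n = 2) to 31.1 ± 2.1 CPM between 0 and 6 h after siIGF2BP1 and from 270 ± 5.5 to 50.6 ± 1.7 CPM after siIGF2BP3, and the log2 difference went from -0.14 to -0.70 (edgeR interaction adjusted p = 0.000157). In siControl it went from 243 ± 4.4 to 30.8 ± 0.34 CPM, the levels of siIGF2BP1 cells, whereas CENPB in siControl went from 82.4 ± 2.3 to 29.3 ± 3.2 CPM, the levels of siIGF2BP3 cells. COPB1, a coat protein of COPI vesicles, and ANO6, a lipid scramblase, were lost more slowly than MPHOSPH10 in both knockdowns. At 6 h, 57.2% ± 2.04 and 74.3% ± 3.43 (SD, n = 2) of their 0 h level were left after siIGF2BP1. After siIGF2BP3 more was left, 78.4% ± 5.7 and 98.8% ± 3.55. COPB1 was at 114 ± 2.3 and 103 ± 2.5 CPM at 0 and 6 h after siIGF2BP1 and at 163 ± 1.1 and 195 ± 4.3 CPM after siIGF2BP3, so its difference grew from -0.51 to -0.92 (edgeR interaction adjusted p = 0.00187). ANO6 went from -0.49 to -0.85 (edgeR interaction adjusted p = 0.00205). At 6 h siControl cells held 190 ± 4.2 CPM of COPB1 and 303 ± 20 CPM of ANO6 (SD, n = 2), close to the 195 and 299 CPM of siIGF2BP3 cells. TGFBR2, the type II receptor for TGF-beta, moved the other way, from -0.14 to 0.35 (edgeR interaction adjusted p = 0.000445), with 24% ± 0.643 of the 0 h level left at 6 h after siIGF2BP1 and 17.8% ± 0.822 after siIGF2BP3 (SD, n = 2).

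**Figure D4:**
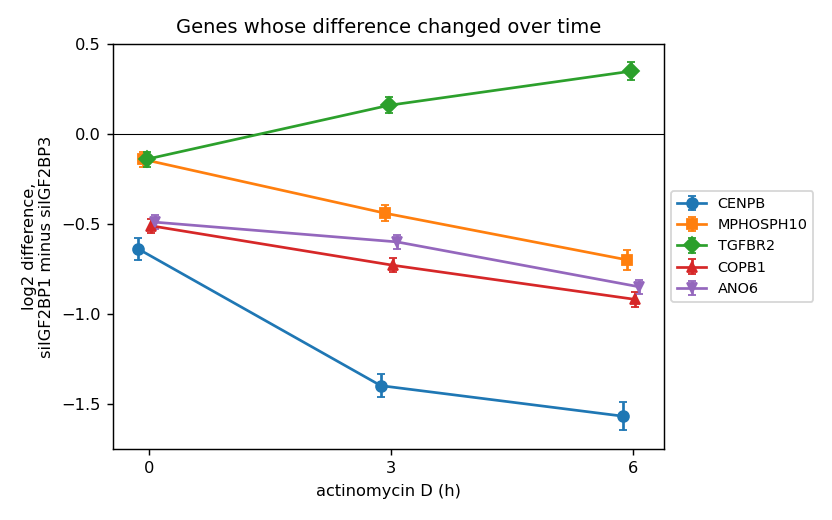
Log2 difference (siIGF2BP1 minus siIGF2BP3, TMM scale) at 0, 3 and 6 h of actinomycin D for 5 of the genes with the smallest interaction p, the targets left out, with bars of 1 SE (points set slightly apart). CENPB went from -0.64 to -1.57, while TGFBR2 went from -0.14 to 0.35.

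Known clients of the family moved in both directions. Of 26 tested, 7 were higher after siIGF2BP1 and 9 higher after siIGF2BP3 (61.5% called, beside 35.1% of all genes), and the median difference was 0.00, as over all genes. Genes with more reads are called more readily, so a list's share called depends on the levels of its members. PEG10, an imprinted gene derived from a retrotransposon, had the most reads of those lower after siIGF2BP1, with 2870, 3780 and 4270 CPM against 3800, 4950 and 5840 CPM after siIGF2BP3. Its groups overlapped over the time course but not within a time point, and its difference was -0.40 (SE 0.015, edgeR adjusted p = 6.19e-18). PEG10 had medians of 3710 CPM in siControl, near the siIGF2BP1 level, and 5420 CPM in siIGF2BP2. DANCR, a long noncoding RNA, and EIF4EBP2, an inhibitor of cap-dependent translation, had differences of -0.39 and -0.36. Their medians of 85.4 and 166 CPM in siControl lay above those after siIGF2BP1, at 63.5 and 116 CPM. IGF2, the growth factor mRNA that gave the family its name, went the other way, with 1060, 1610 and 2050 CPM against 867, 1390 and 1580 CPM and a difference of 0.30 (SE 0.027, edgeR adjusted p = 6.64e-10). On the ERCC scale 2 clients were called higher after siIGF2BP1 and 12 higher after siIGF2BP3, beside 640 and 4952 of the 12860 genes tested. The ERCC counts of every list below have these same counts over all genes beside them.

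Few of the transcripts that the study followed singly were called. Of 10, including METTL1 and WDR4, which write m7G, EXOSC2, a cap subunit of the RNA exosome, and XRN2, a nuclear exoribonuclease, 1 was called (10.0%, against 35.1% of all genes), and the median difference was -0.01. The called gene was ZDHHC9, at 0.18 (SE 0.039, edgeR adjusted p = 0.000471), and this call was lost on the ERCC scale. On the ERCC scale, where the median gene lay at -0.12, 7 of the 10 were called lower after siIGF2BP1. Over all genes the count there was 4952 of 12860.

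Genes of RNA modification and decay were called at shares near to and below the 35.1% of all genes. Of 22 writers, erasers and readers of m6A and m7G, 2 were higher after siIGF2BP1 and 6 higher after siIGF2BP3 (36.4% called), with a median of -0.02. The largest of these were FMR1, a reader of m6A, at 0.25 (SE 0.029, edgeR adjusted p = 7.12e-08) and ZC3H13, a subunit of the m6A writer complex, at -0.23 (SE 0.029, edgeR adjusted p = 2.51e-07). Of 26 exosome subunits and decay enzymes, 5 were higher after siIGF2BP1 and 2 higher after siIGF2BP3 (26.9% called), with a median of 0.00. DCP2, the catalytic subunit of the decapping complex, stood out, with 49.2, 57.5 and 62.4 CPM after siIGF2BP1 and 32.8, 35.7 and 44.4 CPM after siIGF2BP3. Its groups did not overlap and differed by 0.61 (SE 0.039, edgeR adjusted p = 7.21e-13), and the median was 40.8 CPM in siControl and 21.3 CPM in siIGF2BP2. DCP2 overlaps MCC on the opposite strand. CNOT6, a deadenylase, was higher after siIGF2BP1 by 0.28 (SE 0.042, edgeR adjusted p = 6.5e-06). On the ERCC scale the calls were 1 and 14 for the modification genes and 2 and 14 for the decay genes, higher after siIGF2BP1 and siIGF2BP3, respectively. Over all 12860 genes tested they were 640 and 4952.

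Genes of cell adhesion, the cytoskeleton and the matrix were the list of over 5 members with the highest share called. Of 29, 23 were higher after siIGF2BP1 and 2 higher after siIGF2BP3 (86.2% called, beside 35.1% of all genes, of which 18.9% were higher after siIGF2BP1 and 16.2% higher after siIGF2BP3), with a median of 0.18, and 11 and 6 were called on the ERCC scale. AKAP12 led the list. TAGLN, an actin-binding protein of contractile cells, had 22.9, 33 and 45.4 CPM after siIGF2BP1 and 15.9, 25.4 and 31.9 CPM after siIGF2BP3. These ranges overlapped over the time course but not within a time point, and TAGLN differed by 0.48 (SE 0.044, edgeR adjusted p = 9.82e-10). ANKRD1, with a mean of 5.68 CPM, differed by 0.45 (SE 0.11, edgeR adjusted p = 0.00153). CCN2 and SPARC, the 2 members called higher after siIGF2BP3, had differences of -0.30 and -0.23. TAGLN overlaps PCSK7 on the opposite strand.

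Of 34 cell cycle and DNA replication genes, 3 were higher after siIGF2BP1 and 18 higher after siIGF2BP3 (61.8% called, beside 35.1% of all genes). The median was -0.08. On the ERCC scale 0 and 25 were called, beside 640 and 4952 of the 12860 genes tested. AURKB, a mitotic kinase, had 36.9, 45.9 and 52.9 CPM after siIGF2BP1 and 52.7, 59.5 and 63.8 CPM after siIGF2BP3. Its ranges met at their ends, and the difference was -0.41 (SE 0.038, edgeR adjusted p = 1.46e-09). CDK2 and CCND1 (cyclin D1), which drive entry into S phase, and BUB1, a spindle checkpoint kinase, had differences of -0.31, -0.30 and -0.27.

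Of 27 genes of cholesterol and fatty acid synthesis, 18 were higher after siIGF2BP1 and 2 higher after siIGF2BP3 (74.1% called, beside 35.1% of all genes), with a median of 0.12, and 7 and 7 were called on the ERCC scale. MSMO1, a sterol demethylase, had 87.1, 93.1 and 95.6 CPM after siIGF2BP1 and 50, 55.7 and 68.4 CPM after siIGF2BP3. Its groups did not overlap, with a difference of 0.69 (SE 0.038, edgeR adjusted p = 3.8e-14). MVK (mevalonate kinase) had a difference of 0.52 and overlaps MMAB on the opposite strand. Of 21 genes of drug and steroid metabolism, 10 and 2 were called (57.1%), with a median of 0.12, and 5 and 7 on the ERCC scale. ADH4, an alcohol dehydrogenase of hepatocytes, had 162, 190 and 212 CPM against 103, 119 and 151 CPM. Its groups were apart, with a difference of 0.65 (SE 0.041, edgeR adjusted p = 4.67e-13).

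Plasma protein genes moved in both directions with small differences. Of 28, 16 were higher after siIGF2BP1 and 3 higher after siIGF2BP3 (67.9% called, beside 35.1% of all genes), with a median of 0.09, and 6 and 12 were called on the ERCC scale. HP (haptoglobin) and APOC3 were higher after siIGF2BP1 by 0.32 and 0.33, and CP (ceruloplasmin) was lower by a log2 difference of -0.34. Of 15 hepatocyte transcription factors, 2 and 6 were called (53.3%), with a median of -0.06, and 0 and 8 on the ERCC scale. ONECUT1 was lower after siIGF2BP1, at -0.26 (SE 0.053, edgeR adjusted p = 0.000299). Of 9 oncofetal genes, 4 and 3 were called (77.8%), and 3 and 5 on the ERCC scale. KRT19, a keratin of biliary cells, and DLK1, an imprinted inhibitor of Notch signalling, were higher after siIGF2BP1 by 0.31 and 0.26, beside PEG10 at -0.40.

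Among signalling genes, the Wnt list held a single large member. Of 21 Wnt and beta-catenin genes, 6 were higher after siIGF2BP1 and 9 higher after siIGF2BP3 (71.4% called, beside 35.1% of all genes). The median was -0.07. On the ERCC scale 0 and 12 were called, beside 640 and 4952 of the 12860 genes tested. DKK1, a secreted inhibitor of Wnt receptors (chromosome 10, 52314281 to 52318042), had 30.1, 55.8 and 149 CPM after siIGF2BP1 and 61.9, 107 and 262 CPM after siIGF2BP3. Its level fell with time in both, the groups were apart at each time point, and the differences were -0.80, -0.93 and -1 at 0, 3 and 6 h (averaged -0.90, SE 0.033, edgeR adjusted p = 3.44e-18). DKK1 was at 100 CPM in siControl and 180 CPM in siIGF2BP2. ZNRF3, a Wnt target that removes Wnt receptors, and SP5, a Wnt target, had differences of -0.38 and -0.30. AXIN2, TCF7 and NOTUM were among the 6 called the other way, at 0.22, 0.12 and 0.10. Of 30 TGF-beta and BMP genes, 5 and 6 were called (36.7%, beside 35.1% of all genes) and 3 and 13 on the ERCC scale, TGFBR3 being the only one beyond 0.5 in size; INHBE, BMPR2 and BMP4 had 0.40, 0.31 and -0.31.

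Of 20 glycolysis genes, 5 were called in each direction (50%, beside 35.1% of all genes), and 0 and 8 on the ERCC scale, higher after siIGF2BP1 and siIGF2BP3, respectively. SLC2A1, the glucose transporter GLUT1, had 95.1, 102 and 116 CPM after siIGF2BP1 and 141, 151 and 163 CPM after siIGF2BP3. Its groups did not overlap, with a difference of -0.56 (SE 0.038, edgeR adjusted p = 3.26e-12). SLC2A3 (GLUT3) and PDK1, which restrains entry of pyruvate into mitochondria, had -0.34 and -0.33. The 5 members called higher after siIGF2BP1 were PGAM1, PFKL, TPI1, GAPDH and ENO1, at 0.19, 0.14, 0.09, 0.09 and 0.08. The list median was 0.05. Of 22 RAS and MAPK genes, 7 and 5 were called (54.5%), and 0 and 10 on the ERCC scale, and NRAS was at -0.24. Of 17 insulin and IGF genes, 7 and 2 were called (52.9%), and 3 and 5 on the ERCC scale, with IRS1, the insulin receptor substrate, at 0.26 beside IGF2 at 0.30.

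**Figure D5:**
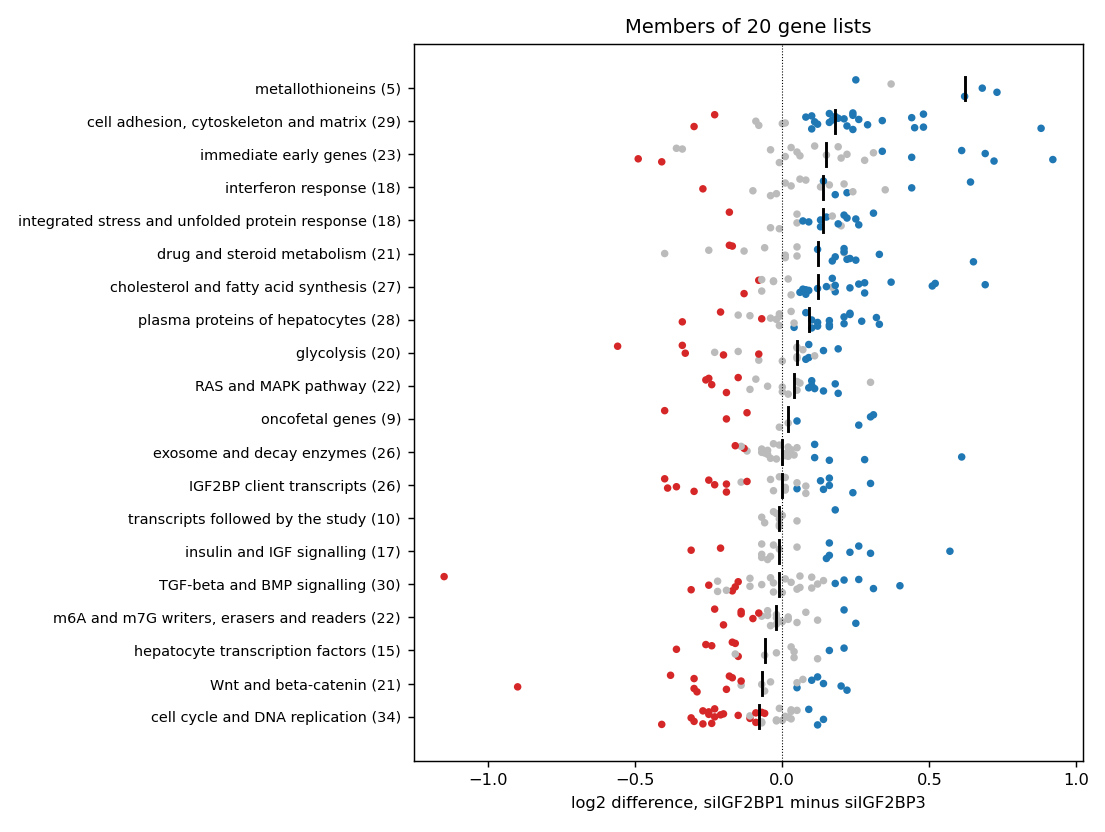
Log2 difference (siIGF2BP1 minus siIGF2BP3, TMM scale) of the members of 20 gene lists, with the number tested in brackets. Blue points were called higher after siIGF2BP1, red points higher after siIGF2BP3 and grey points not called, and the black line is the list's median, from 0.62 (metallothioneins) to -0.08 (cell cycle); on the ERCC scale all points lie about 0.12 further left.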

How the data were processed

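The deposited files hold raw read counts per gene for each library. As the labels and methods describe, the authors trimmed reads with Trimmomatic 0.39, aligned them to hg38 with HISAT2 2.1.0 and counted them with HTSeq on GENCODE 29; the strand setting of the counting is not given in the sources used here. Summary rows that name no gene took 13.551% to 17.064% of reads and were left out. Of 58676 gene rows, 58207 matched GENCODE 44, which gave names, positions and exon lengths.

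Groups came from the sample titles, and the test was checked on simulated counts. The 12860 genes that reached 1 CPM in 2 or more of the 12 libraries were tested with the quasi-likelihood test of edgeR 4.0.16 (R 4.3.3) with TMM scaling and time as a block (8 residual degrees of freedom), and, for single time points and the interaction, with 6 group means (6 residual degrees of freedom). P-values were adjusted by Benjamini-Hochberg over all genes tested, and genes were called at an adjusted p under 0.05. Levels are CPM with TMM scaling over all 24 libraries, and log2 levels used a pseudocount of 0.1. Gene lists (24, with 484 entries) are described by counts and medians, with no set test. Relative to the median of all genes, list medians moved by at most 0.01 with ERCC or library-size scaling.

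Named genes were the family. Added were the 12 highest and 12 lowest called genes with a mean of 5 CPM or more and 1 sign at all time points. The rest were up to 4 called members of each list, the 4 smallest interaction p values and the genes the study examined singly. The members and lists were chosen with earlier results of these data known. Alternatives were DESeq2 1.42.0, ERCC and library-size scaling, other filters, all 24 libraries, replicate blocks, a slope on time, and leaving out each library or time point. Replicate numbers did not pair the samples (correlations of deviations of -0.041, -0.063 and -0.007 over 9713 genes). Some genes that the rule names, and 1 list, are not reported here. Libraries of METTL1 knockdown were not analysed here.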

Additional observations from a re-analysis of the deposited data

Results flagged for a closer look

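The difference between the knockdowns changed over the actinomycin D course for 7 genes described in the report, by edgeR's test of the interaction itself, with adjusted p values of 4.98e-06 for CENPB, 9.83e-05 for IGF2BP1, 9.83e-05 for IGF2BP3, 0.000157 for MPHOSPH10, 0.000445 for TGFBR2, 0.00187 for COPB1 and 0.00205 for ANO6. The changes of the log2 difference from 0 h to 6 h were -0.92 (SE 0.099), -0.41 (SE 0.050), 0.59 (SE 0.069), -0.56 (SE 0.069), 0.48 (SE 0.064), -0.40 (SE 0.057) and -0.36 (SE 0.053), respectively. No cause was tested.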

How the results depend on the processing

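The count of genes called, averaged over time, lay between 3362 and 5592 over 23 alternatives, within 1.5 times the reported 4514. It was 4083 to 4360 when single libraries were left out. The count of genes whose difference changed over time was 53 with DESeq2, 32 with ERCC scaling, 31 with library-size scaling, 81 with no filter on low counts, 42 with all 24 libraries and 31 with the replicate block, in place of 19, and 10 to 41 without single libraries. Counts at single time points were 787 to 1797 at 0 h, 1315 to 2590 at 3 h and 1665 to 2674 at 6 h without single libraries. The targets kept their differences, at -2.66 to -2.59 for IGF2BP1 and 1.98 to 2.08 for IGF2BP3, and IGF2BP2 lay at 0.02 to 0.05. IGF2BP2 reversed to -0.09 on the ERCC scale (edgeR adjusted p = 0.0384). Of 98 called genes that the naming rule chose, 79 kept the call under every alternative, 11 lost it on the ERCC scale and 0 reversed there. With the replicate block, 4588 genes were called averaged over time and no call of a named gene was lost; the numbers did not pair the samples. ERCC totals had a counting error of up to 0.443%; the error of adding the ERCC RNA was not measured.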

Other observations

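Of 5 metallothioneins, which bind zinc and copper, 4 were higher after siIGF2BP1 and 0 higher after siIGF2BP3 (80.0% called, beside 35.1% of all genes). The median log2 difference was 0.62. On the ERCC scale 3 and 0 were called, beside 640 and 4952 of the 12860 genes tested. MT1E had 13.3, 15.5 and 16.7 CPM (lowest, median, highest) after siIGF2BP1 and 8.85, 10.1 and 11.1 CPM after siIGF2BP3. Its groups did not overlap, with a difference of 0.62 (SE 0.059, edgeR adjusted p = 2.13e-09). MT1G, at 0.68 (SE 0.060, edgeR adjusted p = 5.12e-10), had medians of 19.2 CPM after siIGF2BP1, 11.8 after siIGF2BP3, 18.3 in siControl and 26.6 in siIGF2BP2. Metallothioneins are near-identical copies, and the counting could split their reads.

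Of 18 genes of the integrated stress and unfolded protein response, 11 were higher after siIGF2BP1 and 1 higher after siIGF2BP3 (66.7% called, against 35.1% of all genes), with a median of 0.14, and 2 and 2 were called on the ERCC scale. PHGDH and PSAT1, the first enzymes of serine synthesis, had 0.25 (SE 0.021) and 0.22 (SE 0.021). Of 23 immediate early genes, 6 and 2 were called (34.8%), and 6 and 5 on the ERCC scale. JUN, a subunit of AP-1, and KLF6, a zinc finger factor, differed by 0.69 (SE 0.051, edgeR adjusted p = 1.45e-11) and 0.61 (SE 0.048, edgeR adjusted p = 5.89e-11), and the difference was present at 0, 3 and 6 h in both. DUSP6 and BTG1, the 2 called the other way, were at -0.49 and -0.41. Of 18 interferon response genes, 5 and 1 were called (33.3%), and 2 and 3 on the ERCC scale. OAS1 was at 0.64 (SE 0.14, edgeR adjusted p = 0.000782), but its mean was only 2.86 CPM. Its groups were not apart in 1 direction at every time point. IFITM3 was at -0.27 (SE 0.047, edgeR adjusted p = 3.61e-05).

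Some features that the contrast did not use differed between the called groups. In siControl cells, the median loss from 0 to 6 h relative to ERCC RNA was -0.62 on the log2 scale for genes called higher after siIGF2BP1 and -0.87 for those called higher after siIGF2BP3, against -0.88 over all genes tested, targets left out. Of the 2431, 2081 and 12858 genes, 98.1%, 91.2% and 87.5% were protein coding, and the median lengths of the 3′ UTR were 1368, 1503 and 1326 bases. Called genes also had more reads, with median levels of 49.6 and 34.0 CPM against 19.9 CPM, and the number of reads bears on being called. Genes with a called difference of at least 0.5 had fewer reads, with median levels of 5.12 and 4.14 CPM. Their median losses were -0.95 and -0.93, and 5 of 144 and 35 of 215 were long noncoding RNAs, beside 910 of the 12858 genes tested.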
